A study of Mus musculus with 18 samples.

Results

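Wild-type memory CD8 T cells were compared with wild-type effector CD8 T cells of mouse, in 3 libraries of each, chosen by their labels out of 18 libraries in all. The labels give the mice as wild type (WT) and 8 weeks old, the source as lymph nodes and spleen, and the treatment as none. Naive CD8 T cells were isolated, and the effector and memory cells were made from such naive cells in culture, so both groups are culture products and neither comes from an infected or vaccinated mouse. The cytokines, the stimulus and the days of culture are not given in the sources used here. The other 12 libraries are 3 WT naive libraries and 9 of mice labelled cKO for Hspa9, the gene of the mitochondrial chaperone GRP75, in the same 3 subsets. The labels say neither how Hspa9 was targeted nor whether the 3 libraries of a group came from separate mice, so p-values measure the spread between these libraries, which may be technical.

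After a CD8 T cell meets its antigen it can become an effector cell, which divides, loads granules with granzymes and perforin, secretes interferon gamma and enters tissues. It can also become a memory cell, which is quiescent, recirculates through lymph nodes with the help of CCR7, lives on interleukin 7 and interleukin 15, and keeps the transcription factor TCF-1. In culture, cells of either kind are commonly made from activated cells with different cytokines, and the names then describe the resemblance to the cells of an animal.

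The 6 libraries held between 14771251 and 17155017 reads assigned to genes. Levels are given as CPM, read counts relative to library size, scaled by TMM, a method that sets the typical gene equal between libraries, and a log2 fold change is always memory minus effector. Of 14235 genes tested with edgeR's quasi-likelihood test, 4813 (33.8%) were higher in memory and 4900 (34.4%) were lower at an adjusted p under 0.05, 9713 in all (68.2%). At least a 2-fold difference was required in a second count, which held 2055 genes higher in memory (14.4%) and 1651 lower (11.6%). The groups did not overlap, all 3 libraries of 1 group lying on one side of the other, for 10152 genes (71.3%). Counts of gene lists below are to be read against these shares, and medians of lists against the median of all genes tested, 0.02 on the log2 scale. The common coefficient of variation between libraries of a group was 6.35%.

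**Figure D1:**
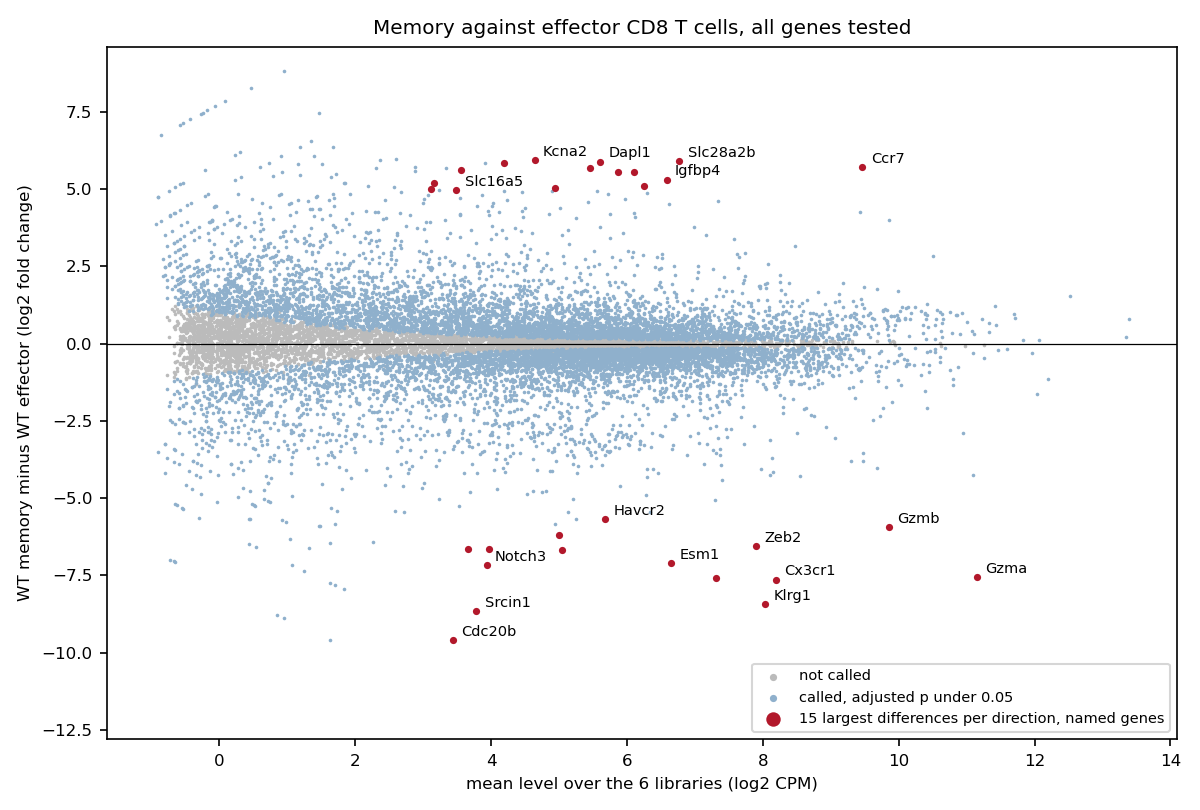
Each point is 1 of the 14235 genes tested, with its mean level over the 6 libraries (log2 CPM) on the x axis and the log2 fold change, memory minus effector, on the y axis. Grey points were not called, and blue points were called at an adjusted p under 0.05. Red points are the 15 per direction with the largest differences, from 5.95 for Kcna2 to -9.60 for Cdc20b. They were taken from called genes whose log2 CPM averaged at least 3 and whose groups did not overlap. Larger values in blue belong to genes with lower levels or no named symbol.

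The labels were checked first against genes of the CD8 T cell. Of 16 genes of the receptor complex, its coreceptor and proximal kinases, all 16 were tested, 5 were higher and 8 lower in memory, against 68.2% called among all genes, none differed by 2-fold, and the median log2 fold change was -0.10. The count of lower genes was 6 with library totals in place of TMM, where Cd3e and Cd247 lost their calls (edgeR, adjusted p = 0.166 and 0.171). With 1 library left out it ranged from 6 to 9. Cd8a, the alpha chain of the coreceptor, held 1774, 1803 and 1820.1 CPM in effector and 1293, 1385 and 1313 CPM in memory libraries. Cd8b1, the beta chain, held 1318, 1296 and 1339 CPM in effector and 866, 971 and 883 CPM in memory libraries. Both chains were modestly lower in memory, by 1.35-fold and 1.45-fold (log2 fold changes -0.44 and -0.54, adjusted p = 1.9e-07 and 3.9e-08), and the WT naive libraries lay at 1432 ± 13.2 and 1048 ± 29.3 CPM (SD, n = 3). Cd4 was at 4.67 ± 0.936 CPM in effector and 6.89 ± 0.880 in memory cells. Cd28, the costimulatory receptor, was higher in memory (479 ± 19.1 against 704 ± 32.0 CPM, log2 fold change 0.56, SE 0.05, adjusted p = 2.6e-08).

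Hspa9 itself (ENSMUSG00000024359, chromosome 18, 35070467 to 35087410) was intact by label in all 6 libraries. It held 127, 136 and 136 CPM in the effector and 232, 246 and 242 CPM in the memory libraries. All 3 memory libraries lay above all 3 effector libraries, 1.80-fold on average (log2 fold change 0.85, SE 0.05, adjusted p = 6.9e-11), near the WT naive level of 228 ± 8.89 CPM.

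The 15 largest differences toward lower levels in memory ran from Cdc20b to Havcr2 and included the granzyme genes Gzma and Gzmb, the receptors Klrg1, Cx3cr1 and S1pr5, and the transcription factor Zeb2. Only genes whose groups did not overlap were eligible, so the separation of the groups in these 15 was set by the choice. Gzma, a granzyme that cuts substrates in a target cell (ENSMUSG00000023132, chromosome 13, 113230359 to 113237515), held 4632, 4322 and 4645 CPM in the effector libraries and 24.4, 25.3 and 22.3 CPM in the memory libraries. Each effector library stood far above each memory library, by 189-fold on average (log2 fold change -7.56, SE 0.07, adjusted p = 1.0e-21). Gzmb, the granzyme that activates caspases (ENSMUSG00000015437, chromosome 14, 56496295 to 56499717), held 1837, 1767 and 1875 CPM in effector and 29.4, 32.6 and 26.5 CPM in memory libraries. The groups were far apart here too, 61.9-fold (log2 fold change -5.95, SE 0.07). In bulk RNA fewer cells of a type and less RNA per cell cannot be told apart, and this holds for every difference given here.

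Klrg1, an inhibitory lectin receptor of terminally differentiated effector cells (ENSMUSG00000030114, chromosome 6, 122247555 to 122259841), held 536, 508 and 521 CPM in effector libraries. In memory libraries it held 1.46, 1.38 and 1.66 CPM, and the 2 groups were separated by 348-fold (log2 fold change -8.43, SE 0.09, adjusted p = 1.9e-21). Cx3cr1, the fractalkine receptor of effector cells in blood, held 601, 579 and 576 CPM in effector and 2.85, 2.71 and 3.21 CPM in memory libraries, 200.2-fold apart. S1pr5, a receptor for the lipid sphingosine 1-phosphate, held 304, 335 and 309.6 against 1.19, 2.11 and 1.60 CPM, 193-fold apart. In all of these the lowest effector library lay above the highest memory library, as the choice of the 15 genes required. Klrg1, Cx3cr1 and S1pr5 were each under 1 CPM in the WT naive libraries, with means of 0.0415, 0.301 and 0.221 CPM.

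The remaining genes of these 15 were of mixed kinds. Cdc20b, a relative of the mitotic activator Cdc20, had 1015 reads over the 3 effector libraries and 1 over the 3 memory libraries. That is a ratio of 1073 with a 95% interval of 192 to 42427 that covers counting error only. Cdc20b (ENSMUSG00000078926, chromosome 13, 113171645 to 113227729) ends just before Gzma begins on that chromosome, and whether reads of one gene were assigned to the other was not tested. Srcin1, an inhibitor of Src kinase, had 1282 reads against 3, a ratio of 452 (interval 154 to 2194). Notch3, a Notch receptor, held 28.4, 30.2 and 32.8 CPM in effector and 0.133, 0.181 and 0.287 CPM in memory libraries. Esm1, the gene of the secreted proteoglycan endocan, held 200.5, 209 and 189.9 against 1.79, 0.843 and 1.72 CPM (138-fold), and was listed at 0 in all 3 WT naive libraries. Cmklr1, the chemerin receptor, was 103-fold lower in memory (65.4 ± 4.45 against 0.635 ± 0.343 CPM), and Havcr2, the inhibitory receptor TIM-3, 51.4-fold (101 ± 3.62 against 1.96 ± 0.351 CPM). The remaining 3 were the long non-coding RNA Miat (log2 fold change -6.64), the Ly6 family gene Ly6a2 (-6.64) and Nhsl2 (-6.20). Ly6a2 belongs to a family of similar genes, so reads may be split between its members.

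The 15 largest differences in the other direction were of mixed kinds and included a homing receptor, a cytokine receptor chain and several carriers. Groups that did not overlap were a condition of the choice for these 15 too. Ccr7, the chemokine receptor that brings T cells into lymph nodes (ENSMUSG00000037944, chromosome 11, 99035022 to 99045903), held 25.7, 26.8 and 26.6 CPM in effector and 1338, 1476 and 1348 CPM in memory libraries. Every memory library was far above every effector library, 52.6-fold on average (log2 fold change 5.72, SE 0.07, adjusted p = 9.1e-21). The WT naive libraries held 362, 439 and 378 CPM, so that the memory libraries were above these too. Dapl1, a small death-associated protein-like gene (ENSMUSG00000026989, chromosome 2, 59314997 to 59335364), held 1.85, 0.990 and 1.91 CPM in effector and 88.8, 101 and 95.4 CPM in memory libraries. Those groups were 60.0-fold apart and did not overlap. Ifngr2, the signalling chain of the interferon gamma receptor (ENSMUSG00000022965, chromosome 16, 91343960 to 91362511), held 2.18, 1.65 and 1.11 against 82.9, 83.7 and 88.8 CPM. Its partner chain gene Ifngr1 was slightly lower in memory, 721 ± 15.6 against 629.7 ± 11.5 CPM (log2 fold change -0.20), so the 2 chains of the receptor went in opposite directions.

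Kcna2, a voltage-gated potassium channel subunit with the largest difference among these 15 genes, held 0.594, 0.858 and 0.864 CPM in effector and 51.1, 42.0 and 52.1 CPM in memory libraries (62.7-fold). Slc28a2b, a nucleoside carrier with a close paralog beside it, held 4.09, 3.17 and 3.40 against 215, 202 and 224 CPM (60.2-fold). Slc6a19, a carrier of neutral amino acids, held 0.792, 0.660 and 0.370 against 36.0, 34.7 and 34.4 CPM. In none of these did a memory library approach an effector library. Ramp1, a subunit of the receptor for the neuropeptide CGRP, was 49.1-fold higher in memory, Igfbp4, which binds insulin-like growth factors, 39.5-fold, and Treml2, a TREM family receptor, 34.4-fold. The list was completed by Tdrp (5.56), the filamin binder Rflnb (5.54), the tetraspanin Tspan9 (5.20), the polarity scaffold Patj (5.05), Tmem108 (5.01) and the monocarboxylate carrier family gene Slc16a5 (4.97), with log2 fold changes in parentheses. All 15 of these genes had WT naive means far above the effector means, from 20.4 CPM for Tmem108 to 393 for Ccr7.

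Of 20 factors known from memory or stem-like T cells, 16 were higher in memory and 3 lower, 11 of them at least 2-fold higher, with a median log2 fold change of 1.26. Of 23 factors known from effector cells, 17 were lower in memory and 3 higher, 9 of them at least 2-fold lower, with a median of -0.55. Tcf7, which encodes TCF-1 (ENSMUSG00000000782, chromosome 11, 52143198 to 52174158), held 108, 109 and 110.4 CPM in effector and 1741, 1812 and 1709 CPM in memory libraries. The memory libraries were 16.1-fold higher without overlap (log2 fold change 4.01, SE 0.05, adjusted p = 5.2e-20), and the WT naive libraries held 1449.7, 1565 and 1428 CPM. Lef1, the TCF-1 partner, was at 118 ± 2.69 CPM in effector and 409.8 ± 12.2 in memory cells (log2 fold change 1.80). Bach2, a repressor that restrains effector differentiation, was at 15.3 ± 0.353 and 119.6 ± 7.10 CPM (2.97), and Id3, an inhibitor of E proteins, at 2.11 ± 0.00741 and 29.7 ± 2.13 CPM (3.81).

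Some of the memory factors stood above their naive level and some below it. Myb, a factor of stem-like CD8 T cells, held 27.4, 27.4 and 29.5 CPM in effector and 157, 142 and 156 CPM in memory libraries, against 39.8 ± 1.55 in WT naive libraries. Tox, which is high in exhausted cells and also in naive ones here, was at 9.28 ± 0.619, 49.0 ± 2.18 and 68.0 ± 2.88 CPM in effector, memory and naive cells. Foxo1, which drives Il7r and Klf2, was 2.32-fold higher in memory than in effector cells, and Klf2, a factor of recirculation, 1.77-fold. Eomes, a T-box factor of memory and of effector cells, was higher in memory (log2 fold change 0.50, 86.9 ± 7.79 against 123 ± 10.1 CPM). The 3 members that were lower were Mxd4 (log2 fold change -0.63), Bcl11b (-0.19) and Ets1 (-0.15).

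Among the effector factors Zeb2, a driver of terminal effector differentiation (ENSMUSG00000026872, chromosome 2, 44873644 to 45007407), held 486, 469.7 and 466 CPM in effector and 5.83, 5.24 and 4.13 CPM in memory libraries. Every effector library stood far above every memory library, the means being 93.6-fold apart (log2 fold change -6.56, SE 0.08, adjusted p = 3.6e-20). Prdm1, which encodes Blimp-1, held 117, 115 and 112 against 5.04, 4.69 and 4.24 CPM (24.6-fold). Tbx21, which encodes T-bet, held 363, 425 and 367 against 37.1, 41.3 and 41.5 CPM (9.63-fold), with 3.61 ± 0.226 CPM in naive cells. Bhlhe40, an activation-induced factor, was at 1542 ± 56.1 and 95.1 ± 6.08 CPM (log2 fold change -4.02), and Id2 at 408 ± 6.44 and 167 ± 13.1 CPM (-1.29). The 3 members higher in memory were Myc (63.3 ± 4.70 against 281 ± 10.1 CPM, 2.15), Ikzf2, the gene of Helios (2.49), and Stat3 (0.19). The values for Irf4, 114 ± 5.15 and 124 ± 3.72 CPM, missed the threshold (adjusted p = 0.065) and passed it without memory replicate 2 (0.021).

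**Figure D2:**
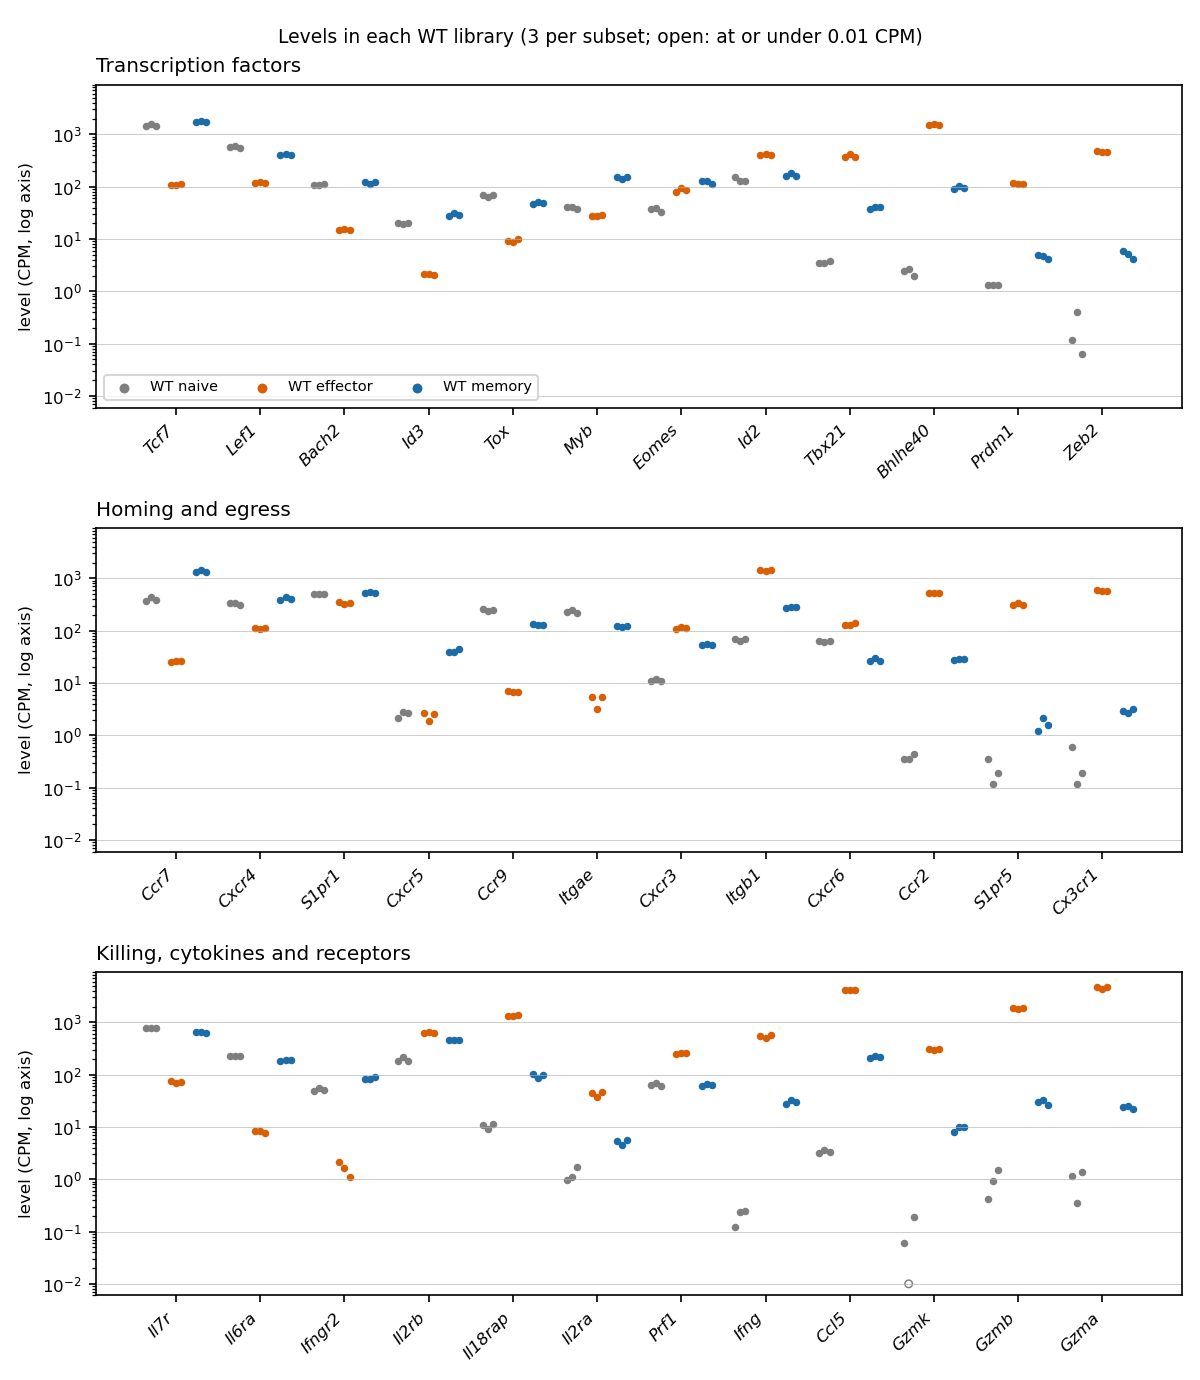
Points are the levels in each WT library (CPM, log axis) of genes named in the text, with 3 naive, 3 effector and 3 memory libraries per gene, and open points stand at or under 0.01 CPM. Tcf7 and Il7r sit near their naive levels in memory libraries, with means of 1754 and 640.3 CPM, and Zeb2, Cx3cr1 and Gzma are high in effector libraries, with means of 474, 585 and 4533 CPM.

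Receptors for homing and egress went both ways. All 23 tested were called, 10 higher and 13 lower in memory, and the groups did not overlap for any of them, against 71.3% of all genes tested. Cxcr4, a bone marrow homing receptor (ENSMUSG00000045382, chromosome 1, 128515936 to 128520030), held 110.3, 107 and 111 CPM in effector and 386, 447 and 409 CPM in memory libraries. Memory libraries were 3.78-fold higher without overlap (log2 fold change 1.92, SE 0.06, adjusted p = 2.7e-15), with WT naive libraries at 332, 334 and 310.1 CPM. S1pr1, the receptor for leaving lymph nodes, held 352, 318 and 343 against 532, 555 and 517 CPM and was 1.58-fold higher in memory, while its relatives S1pr5, given above, and S1pr4 (log2 fold change -1.25) were lower. Cxcr5, a receptor for B cell follicles, was 17.3-fold higher (2.38 ± 0.406 against 41.3 ± 2.96 CPM) and also above the naive mean of 2.54 ± 0.349 CPM. Ccr9, a gut homing receptor, and Itgae, the CD103 integrin chain, were 19.0-fold and 26.0-fold higher, below their naive means of 247 and 229.8 CPM, while Itgb7, an integrin chain of gut homing and the partner of Itgae, was lower (log2 fold change -0.60).

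Ccr2, a receptor of inflammatory chemokines, held 528, 526 and 524 CPM in effector and 27.0, 28.3 and 28.1 CPM in memory libraries, 18.9-fold lower. Cxcr6 was 4.81-fold lower in memory and Cxcr3 2.05-fold. The integrin chains Itga1, Itgb1, Itga4 and Itgal were lower by 44.0-fold, 5.02-fold, 4.23-fold and 2.91-fold. In Ccr2, Cxcr3 and Itgb1 the memory means (27.8, 54.4 and 279.8 CPM) were between the effector and the naive means (0.381, 11.3 and 67.8 CPM).

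Of 19 surface markers of memory and activation, 9 were higher and 9 lower in memory. Cd44, the hyaluronan receptor that marks activated T cells of either kind, held 172, 173 and 181 CPM in effector and 96.2, 99.96 and 95.7 CPM in memory libraries. Memory libraries were lower without overlap (log2 fold change -0.85, SE 0.05, adjusted p = 6.0e-11), and both groups were above the WT naive libraries at 12.5, 12.6 and 16.3 CPM. Cd27, a costimulatory receptor of memory cells, was 2.22-fold higher in memory, and Spn, which encodes the activation-associated CD43, was 3.73-fold lower. Slamf6, a marker of stem-like cells, was at 74.0 ± 2.62 and 254 ± 15.9 CPM (log2 fold change 1.78), and Ly6c2 at 974 ± 122 and 425 ± 36.8 CPM (-1.20).

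Of 26 cytokine receptor genes tested, 14 were higher and 11 lower in memory, 7 in each direction by 2-fold. Il7r, the interleukin 7 receptor chain of long-lived cells (ENSMUSG00000003882, chromosome 15, 9505874 to 9530262), held 74.6, 69.6 and 71.8 CPM in effector and 656, 643 and 623 CPM in memory libraries. Memory libraries were 8.89-fold higher without overlap (log2 fold change 3.15, SE 0.05, adjusted p = 1.3e-18), and the naive libraries held 791, 764 and 792 CPM. Il6ra and Il6st, the chains of the interleukin 6 receptor, were 23.0-fold and 10.4-fold higher, and Il4ra was 6.99-fold higher. Il18rap, an interleukin 18 receptor chain, held 1311, 1298 and 1376 CPM in effector and 103, 86.8 and 97.5 CPM in memory libraries, 13.9-fold lower. Il12rb2, an interleukin 12 receptor chain, was 10.7-fold lower and Il2ra, the high-affinity interleukin 2 receptor chain, 8.26-fold. Il2rb, the chain shared by interleukin 2 and 15, and Il15ra, the interleukin 15 chain, were lower by less (log2 fold changes -0.46 and -0.51).

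Genes of the cytokine feedback loop, which signalling by those receptors induces, were 7 higher and 7 lower in memory out of 15. Socs3, a brake on interleukin 6 signalling, held 18.0, 16.0 and 17.0 CPM in effector and 234, 246 and 223 CPM in memory libraries, 13.8-fold higher. Pim2, a survival kinase, was 4.62-fold higher. Socs2 and Cish, targets of STAT5, were lower in memory, at 6.28 ± 0.362 against 0.392 ± 0.122 CPM and 28.2 ± 3.70 against 3.72 ± 0.927 CPM. Socs2 and Socs3 thus lay at opposite ends of the list, with log2 fold changes of -3.99 and 3.79.

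None of the 16 cytotoxic genes tested was higher in memory, 14 were lower, 9 of them by 2-fold, and the median log2 fold change was -1.88. Prf1, the pore-forming protein perforin (ENSMUSG00000037202, chromosome 10, 61133612 to 61140459), held 245, 258 and 260.1 CPM in effector and 60.9, 66.1 and 64.2 CPM in memory libraries. Memory libraries were 3.99-fold lower without overlap (log2 fold change -2.00, SE 0.05, adjusted p = 6.0e-16), and naive libraries held 62.1, 69.2 and 61.8 CPM, which the memory libraries overlapped. Gzmk was 33.3-fold lower and Fasl, the death ligand, 18.4-fold. Serpinb9, the inhibitor that shields a killer from its own granzyme B, was 10.9-fold lower. Ctsc, the protease that activates granzymes, was lower by less, at 218 ± 14.6 against 118 ± 1.22 CPM (log2 fold change -0.88). Ctsw and Lamp1 were the 2 members that missed the threshold, with log2 fold changes of -0.08 and 0.01, and Ctsw passed it without memory replicate 2 (adjusted p = 0.02). Another 5 of the 21 listed genes were not tested, as too few reads were assigned to them or a table did not list them, and granzyme genes are similar enough that reads could be split between them.

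Secreted mediators were lower for 8 and higher for 4 of 12 tested. Ifng, the gene of interferon gamma (ENSMUSG00000055170, chromosome 10, 118276951 to 118281797), held 539.9, 509.7 and 567 CPM in effector and 27.5, 32.6 and 30.1 CPM in memory libraries. Memory libraries were 17.9-fold lower without overlap (log2 fold change -4.16, SE 0.07, adjusted p = 9.0e-19) and far above the naive mean of 0.200 ± 0.0702 CPM. The chemokine genes Ccl5, Ccl4 and Ccl3 were 19.1-fold, 15.3-fold and 14.9-fold lower. Ltb, Lta and Xcl1 were higher in memory (2.35-fold, 4.51-fold and 2.42-fold), and Mif by 1.36-fold. Tnf held 21.9 ± 2.15 CPM in effector and 17.1 ± 1.16 in memory cells (log2 fold change -0.35, adjusted p = 0.0047).

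Receptors shared with NK cells were mostly lower in memory, 17 of 24, with 3 higher and a median log2 fold change of -1.60. Klrc1, the gene of the inhibitory receptor NKG2A, held 536, 522 and 519 CPM in effector and 39.8, 37.4 and 42.5 CPM in memory libraries, and Klrk1, the activating receptor NKG2D, 312, 327 and 332 against 48.0, 45.3 and 50.9 CPM. They were 13.2-fold and 6.74-fold lower, and both were above the naive means of 0.0815 and 10.7 CPM. Klrd1, the partner chain of the NKG2 receptors, was 1.61-fold lower. The 3 that were higher were Cd7 (26.1 ± 1.03 against 98.9 ± 5.30 CPM), Klra10 (1.78 on the log2 scale) and Klra6 (0.80). The Klra and Klrc families are made of near-identical neighbours, so their single members are uncertain.

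Inhibitory receptors were not uniformly on either side: 9 of 18 were lower in memory and 6 higher. Havcr2 and Entpd1, the ectoenzyme CD39, were lower by 51.4-fold and 17.4-fold, and Pdcd1, the gene of PD-1, was at 15.4 ± 1.68 and 3.77 ± 0.0663 CPM (log2 fold change -2.03). Lag3 was at 28.3 ± 2.65 and 12.3 ± 0.564 CPM (-1.19) and Tigit at 64.2 ± 3.02 and 19.6 ± 0.917 CPM (-1.71). Btla held 25.1, 26.5 and 25.9 CPM in effector and 148, 143 and 142 CPM in memory libraries, 5.58-fold higher. Ctla4 held 79.8, 80.2 and 85.4 against 234, 234 and 241 CPM, 2.89-fold higher and also above the naive mean of 53.5 ± 4.17. Of 19 costimulatory and TNF family genes, 7 were higher and 8 lower. The extremes were Tnfsf8, the CD30 ligand, 30.8-fold higher, and Tnfrsf8, its receptor CD30, 9.18-fold lower, while Slamf7 was 7.36-fold lower and Tnfrsf26 4.15-fold higher.

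**Figure D3:**
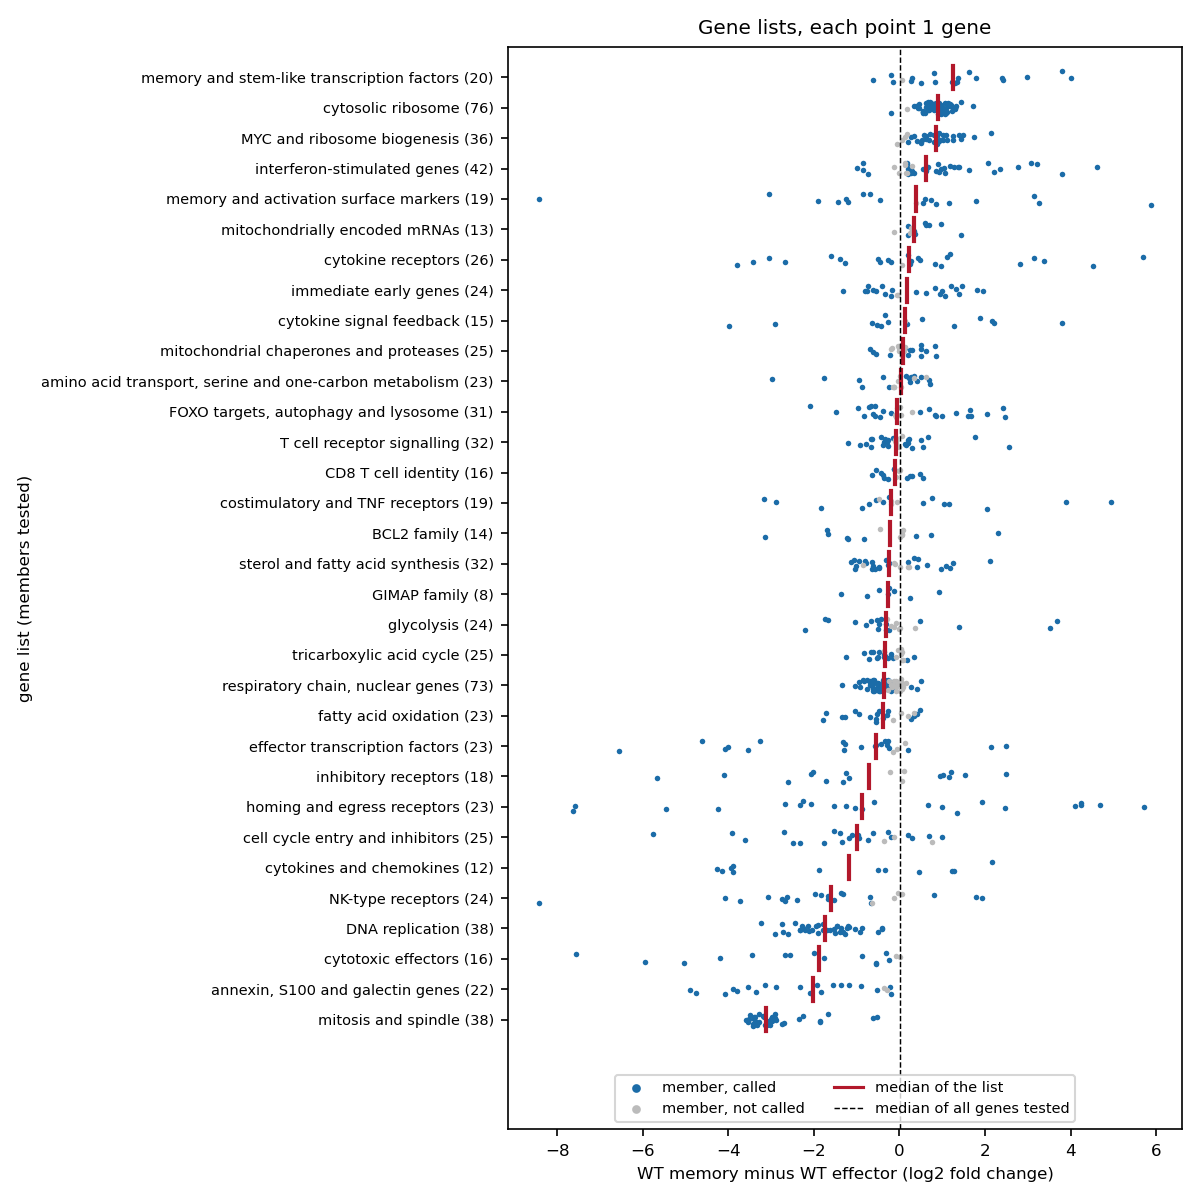
Each row is a gene list with the number of members tested, each point the log2 fold change (memory minus effector) of 1 member, blue where called and grey where not, and the red line the list's median. Lists of markers of other cell types are not drawn. Among the lists drawn, mitosis genes lie lowest with a median of -3.12 and memory transcription factors highest with 1.26, against 0.02 for all genes tested (dashed line).

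All 38 mitosis and spindle genes were lower in memory, 36 by 2-fold, with a median log2 fold change of -3.12 and no overlap between groups for any of them. All 38 DNA replication genes were lower too, 33 by 2-fold, with a median of -1.74 and again no overlap. Mki67, the proliferation marker Ki-67 (ENSMUSG00000031004, chromosome 7, 135291513 to 135318090), held 1369.8, 1266 and 1285 CPM in effector and 116, 108 and 113 CPM in memory libraries. Memory libraries were 11.7-fold lower (log2 fold change -3.54, SE 0.06, adjusted p = 5.0e-19), yet above the WT naive libraries at 14.0, 11.5 and 12.4 CPM. Ccna2, the S phase and mitotic cyclin, held 221, 212 and 222 against 19.9, 17.6 and 16.7 CPM. Kif11, the motor that separates spindle poles, held 308, 293 and 306 against 28.1, 27.4 and 28.7 CPM, and Top2a, the decatenating topoisomerase, 976, 945 and 947 against 119, 114 and 115 CPM. In all of these, memory cells sat between effector and naive cells, the naive means being 2.35, 4.28 and 20.4 CPM.

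Within DNA replication, Rrm2, the ribonucleotide reductase subunit that supplies DNA precursors, was 9.47-fold lower (263 ± 1.46 against 27.8 ± 2.59 CPM) and Uhrf1, which maintains DNA methylation, 5.01-fold. Cdc6 and Mcm10, which license and start origins, were 6.63-fold and 7.50-fold lower. The subunits of the MCM helicase, Mcm2 to Mcm7, were lower by less, with log2 fold changes between -1.96 (Mcm5) and -1.17 (Mcm4). The smallest differences were those of Gins4 (-0.41) and Pola2 (-0.40). Among mitosis genes the smallest differences were those of Cenpa (-0.52), Pttg1 (-0.62), Racgap1 (-1.67), Cdc25b (-1.87) and Kif23 (-1.87).

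The regulators upstream were mixed. Of 25 genes of cell cycle entry and its inhibitors, 18 were lower in memory and 4 higher. E2f7 and E2f8, repressor E2F factors that rise with proliferation, were 15.0-fold and 12.2-fold lower, and E2f2 5.02-fold. The inhibitor genes Cdkn2c and Cdkn1a were also lower, at 56.2 ± 2.10 against 8.54 ± 1.12 CPM and 16.7 ± 2.22 against 2.96 ± 0.676 CPM. Cdkn2a was at 3.75 ± 0.418 CPM in effector and 0.0592 ± 0.0602 in memory cells. The 4 that were higher were the antiproliferative genes Btg1 (1301 ± 29.2 against 2597 ± 62.5 CPM) and Tob1 (0.19 on the log2 scale), the inhibitor Cdkn1b (242 ± 6.44 against 395 ± 11.2 CPM) and the cyclin Ccnd2 (0.29). Tob1 lost its call without effector replicate 2 or 3 or memory replicate 2 (adjusted p = 0.06, 0.087 and 0.078). Cdk4 held 105 ± 6.67 and 96.6 ± 6.63 CPM and missed the threshold (adjusted p = 0.12), which it passed without effector replicate 2 (0.03) or memory replicate 2 (0.016).

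The promoter letters of the mitosis and DNA replication genes are given as a description, and their part in the differences was not tested. Promoter windows of RefSeq, 250 bases before to 50 after the start on the build GRCm38.p6, were matched by symbol for 32 of the 38 mitosis genes and 31 of the 38 replication genes. Motifs were searched on both strands: the cell cycle homology region, CHR, as TTTGAA or TTCGAA; the E2F motif as TTTCCCGC or TTTGGCGC; and the CCAAT box as CCAAT. No motif contains another. The windows of Mki67 (chr7:135716330-135716629, minus strand) and Kif11 (chr19:37376132-37376431, plus strand) are printed with CHR and CCAAT matches in capitals, and that of Mcm5 (chr8:75109259-75109558, plus strand) with the E2F match in capitals.
Mki67: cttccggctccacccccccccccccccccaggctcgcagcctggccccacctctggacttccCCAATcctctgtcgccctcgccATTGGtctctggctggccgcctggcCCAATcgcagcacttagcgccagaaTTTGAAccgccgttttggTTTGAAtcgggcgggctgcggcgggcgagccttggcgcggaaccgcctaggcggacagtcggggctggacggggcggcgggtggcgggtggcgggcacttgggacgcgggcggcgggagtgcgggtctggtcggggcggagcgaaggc
Kif11: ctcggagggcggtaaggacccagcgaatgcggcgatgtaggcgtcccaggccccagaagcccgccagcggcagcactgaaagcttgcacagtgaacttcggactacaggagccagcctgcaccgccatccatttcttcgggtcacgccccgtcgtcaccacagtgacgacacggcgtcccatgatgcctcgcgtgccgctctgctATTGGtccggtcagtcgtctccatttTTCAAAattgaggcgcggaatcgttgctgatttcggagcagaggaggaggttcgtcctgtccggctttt
Mcm5: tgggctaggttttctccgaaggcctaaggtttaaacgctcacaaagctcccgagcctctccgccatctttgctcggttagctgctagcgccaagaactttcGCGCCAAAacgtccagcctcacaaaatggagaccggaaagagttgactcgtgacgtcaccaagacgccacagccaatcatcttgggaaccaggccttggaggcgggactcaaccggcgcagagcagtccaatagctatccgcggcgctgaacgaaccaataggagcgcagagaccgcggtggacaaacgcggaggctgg

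A CHR stood in 25 of 32 mitosis windows (78.1%), against 19.4% of the 27025 RefSeq windows with 1 window per gene. A CHR and a CCAAT box together stood in 22 of the 32 (68.8%), against 7.7% of all windows. The E2F letters stood in 10 of 31 replication windows (32.3%), against 1.63% of all windows, and in none of the 32 mitosis windows. In the Mki67 window the CHR matches begin 116 and 98 bases before the start and the CCAAT matches 188, 166 and 141 bases before it, and in Kif11 they begin 19 and 45 bases before it. The median log2 fold change was -3.09 for the 25 mitosis genes with a CHR and -3.10 for the 7 without. For the replication genes it was -1.42 in the 10 with the E2F letters and -1.78 in the 21 without. A match is a run of letters and does not show that a factor binds there.

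**Figure D4:**
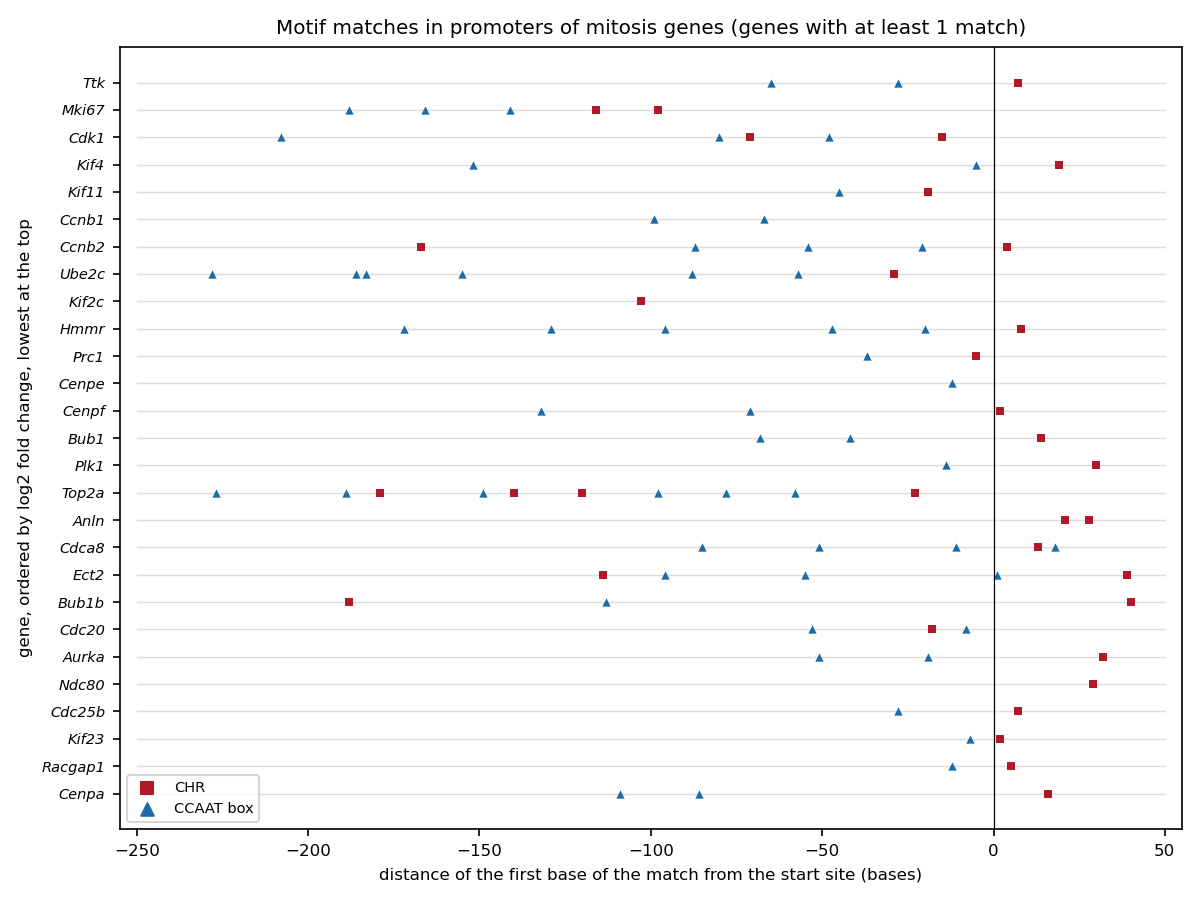
Rows are the 27 mitosis genes whose promoter window holds at least 1 match, and symbols mark where each match begins, in bases from the start site, with red squares for CHR and blue triangles for the CCAAT box. Of 34 CHR matches, 26 begin within 100 bases before the start or after it, and most rows hold CCAAT boxes before the CHR.

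Genes of calcium and membrane binding and of the cytoskeleton were on the effector side. Of 22 annexin, S100, galectin and related genes, 20 were lower in memory and none higher, with a median log2 fold change of -2.02. Lgals3, the gene of galectin-3, held 148, 152 and 149.7 CPM in effector and 6.03, 4.69 and 4.53 CPM in memory libraries, 29.5-fold lower. Anxa2, a membrane-binding annexin, held 484, 497 and 501 against 51.5, 60.5 and 56.4 CPM, and Ahnak, a large scaffold, 3554, 3400.1 and 3441 against 501, 418 and 484 CPM. Effector libraries were higher in each of them without overlap. S100a6, S100a10, Lgals1 and Vim were 14.9-fold, 5.02-fold, 13.9-fold and 4.29-fold lower, and S100a8 and S100a9 were the 2 that missed the threshold.

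Genes of protein synthesis were on the memory side. Of 76 cytosolic ribosomal protein genes, 74 were higher in memory, 1 was lower, 23 were at least 2-fold higher and the median log2 fold change was 0.91. Their summed level was 44243, 44004 and 44569 CPM in effector, 76975, 92191 and 79257 in memory and 87072, 75846 and 81899 in naive libraries. The memory libraries were above the effector libraries by 1.87-fold (exact two-sided permutation test, p = 0.1, the smallest that 3 against 3 allow) and overlapped the naive ones. Memory replicate 2 held the most, and without it 73 of the 76 genes were higher. Many of these genes have processed pseudogenes that can share their reads. Of 36 genes of MYC and ribosome biogenesis, 32 were higher and none lower, with a median of 0.86. Myc held 60.0, 68.7 and 61.1 CPM in effector, 270.1, 290.2 and 281 in memory and 152, 191 and 152 in naive libraries. Gnl3, a nucleolar GTPase, was 3.33-fold higher, Polr1b, a subunit of RNA polymerase I, 2.69-fold, and Mybbp1a 2.61-fold.

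Of 73 nuclear genes of the respiratory chain, 51 were lower in memory and 3 higher, only 2 by 2-fold, with a median log2 fold change of -0.36. Of 25 genes of the tricarboxylic acid cycle, 15 were lower and 2 higher, with a median of -0.34. Sucla2 and Idh3a, 2 enzymes of that cycle, were lower at 70.4 ± 1.89 against 39.9 ± 3.73 CPM and 138 ± 5.86 against 83.8 ± 1.12 CPM. Fatty acid oxidation genes were 14 lower and 5 higher of 23, with Fabp5, a fatty acid carrier, lower by 3.43-fold and Acadl, an acyl-CoA dehydrogenase, by 2.06-fold. Cpt1a, which admits fatty acids to the mitochondrion, was at 77.3 ± 4.57 CPM in effector, 53.5 ± 1.88 in memory and 151 ± 7.40 in naive cells.

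The transcripts of the mitochondrial genome went the other way. Of 13 mitochondrially encoded mRNAs, 10 were higher in memory and none lower, with a median of 0.33. The count was 6 without effector replicate 2 and 7 without memory replicate 3. Reads from the mitochondrial chromosome made up 1.90, 1.79 and 1.89% of the effector and 2.35, 2.48 and 2.39% of the memory libraries (exact two-sided permutation test, p = 0.1). The memory libraries were all above the effector libraries, and the naive libraries, which overlapped the effector ones and lay below the memory ones, were at 2.23, 1.86 and 2.27%. mt-Nd2, a complex I subunit, was 1.97-fold higher and mt-Nd1 1.61-fold. Several of these mRNAs, such as mt-Co2 and mt-Atp6, held under 100 CPM, and part of the mitochondrial genome is copied in the nucleus, so reads may be lost there.

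Of 24 glycolysis genes, 13 were lower in memory and 4 higher. Slc2a3, the glucose transporter GLUT3, held 271, 279.8 and 295 CPM in effector and 88.1, 84.9 and 79.3 CPM in memory libraries, 3.35-fold lower. Pfkp, a phosphofructokinase, was 2.07-fold lower and Hk2, a hexokinase, 3.21-fold. Pdk1, the kinase that shuts pyruvate dehydrogenase, held 21.1, 24.2 and 23.2 against 264, 269 and 253 CPM, 11.5-fold higher, and Ldhb, the heart-type lactate dehydrogenase subunit, 13.1-fold higher. Ldha was at 495 ± 10.2 and 357 ± 25.0 CPM (log2 fold change -0.47). Gapdh held 34.6, 118 and 35.1 CPM in effector and 71.8, 63.6 and 42.5 CPM in memory libraries, with a single high effector library. It missed the threshold (log2 fold change -0.08, adjusted p = 0.83), and without effector replicate 2 it was 0.75 (7.2e-04). It has many near-identical pseudogenes whose reads cannot be told from its own.

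Synthesis pathways were mixed. Of 32 sterol and fatty acid synthesis genes, 16 were lower and 10 higher in memory. Ebp and Stard4, of cholesterol synthesis and transport, were lower, with log2 fold changes of -1.14 and -1.04, and Elovl6, a fatty acid elongase, was 4.36-fold higher. Of 23 genes of amino acid transport, serine and one-carbon metabolism, 9 were higher and 6 lower. Niban1, a stress-induced gene, was 7.97-fold lower, Psat1, of serine synthesis, 1.93-fold lower, and Shmt2, of mitochondrial folate metabolism, 1.64-fold higher. Of 25 mitochondrial chaperones and proteases, 10 were higher and 4 lower, none by 2-fold. Hspe1, the partner of HSP60, was 1.78-fold higher, beside Hspa9 given above, while Hspd1, which encodes HSP60, was at 218 ± 3.80 and 228 ± 14.0 CPM and missed the threshold (adjusted p = 0.28).

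Survival genes were on both sides. Of 14 BCL2 family genes tested, 6 were lower in memory and 3 higher. Bcl2, the survival factor that interleukin 7 sustains, held 45.6, 42.7 and 45.3 CPM in effector and 224, 208 and 228 CPM in memory libraries, 4.94-fold higher without overlap and near the naive mean of 259 ± 8.10 CPM. Bcl2a1d, a prosurvival member with near-identical copies, was 8.90-fold lower, and Pmaip1, the gene of NOXA, 3.25-fold. Bcl2l11, the gene of BIM, held 100.1 ± 4.88 and 101 ± 8.79 CPM (adjusted p = 0.91).

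Of 42 interferon-stimulated genes, 31 were higher and 4 lower in memory, with a median log2 fold change of 0.62 and 15 at least 2-fold higher. Oas2, an antiviral sensor, held 1.39, 1.58 and 1.30 CPM in effector and 35.7, 34.4 and 36.2 CPM in memory libraries. Slfn5 held 5.94, 4.82 and 6.48 against 40.0, 39.2 and 39.9 CPM. Memory libraries were higher in both without overlap, and below the naive means of 65.5 ± 2.82 and 114 ± 6.16 CPM. Ifi213 was 4.21-fold higher, while Mx1, Gbp7, Gbp3 and Ifit2 were lower (-0.99, -0.86, -0.85 and -0.74 on the log2 scale).

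Immediate early genes, which stimulation or handling of cells induces within minutes, were 12 higher and 10 lower in memory of 24. Fos held 232, 245 and 239.6 CPM in effector and 896, 968 and 908 CPM in memory libraries, and Jun 302, 345 and 303 against 1064, 1198 and 1091 CPM. Both were higher in memory, 3.87-fold and 3.53-fold, without overlap. Dusp5, a phosphatase of ERK, was 2.50-fold lower, and Nr4a1, which T cell receptor signals induce, was at 1192 ± 37.3 and 815 ± 26.6 CPM (log2 fold change -0.55), against 67.7 ± 6.14 in naive cells. Of 32 genes of T cell receptor signalling, 14 were lower and 11 higher. The 3 named members that were lower were Ubash3b (-1.21), the kinase gene Fyn (-0.93) and Nfatc3 (-0.79), and Dgka, which dampens diacylglycerol signals, was 3.39-fold higher (373 ± 6.26 against 1263 ± 11.9 CPM).

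Of 31 genes of FOXO targets, autophagy and the lysosome, 12 were higher and 12 lower. Pik3ip1 and Tsc22d3, restrained by PI3 kinase signals, were 5.37-fold and 3.02-fold higher, and Sesn3 3.12-fold. Ctsd, the lysosomal protease cathepsin D, was 4.28-fold lower (646 ± 25.1 against 151 ± 11.0 CPM). Of the 8 GIMAP genes, GTPases of lymphocyte survival, 6 were lower and 2 higher. Gimap7 was 2.59-fold lower and Gimap6 1.90-fold higher.

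Markers of other cell types were measured in the same libraries, and their part in the results above was not tested. All 13 B cell genes were higher in memory. Their summed level was 170.5, 173 and 169 CPM in effector and 654, 722 and 675 CPM in memory libraries, with 441 ± 23.1 in WT naive ones. Most of that was Ighm, at 107 ± 2.23, 505 ± 24.6 and 408 ± 23.3 CPM in effector, memory and naive cells. Without it the sum was 63.7 ± 1.89, 179 ± 10.3 and 33.7 ± 1.11 CPM. Ms4a1, which encodes CD20, was at 4.51 ± 1.29 CPM in effector, 16.8 ± 2.09 in memory and 0.101 ± 0.0922 in naive cells.

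Of 16 macrophage and dendritic cell genes tested, 3 were higher and 4 lower, and the list summed to 826 ± 3.53 CPM in effector and 69.3 ± 4.16 in memory cells. Itgax and Itgam, integrin chains that effector T cells also carry, made up nearly all of the difference: Itgax held 707, 721 and 711 CPM in effector and 34.2, 34.1 and 40.2 CPM in memory libraries. Without Itgax and Itgam the sum over 14 genes was 41.0 ± 1.13 CPM in effector and 30.7 ± 2.63 in memory cells, against 4.49 ± 0.222 in naive ones. Of 9 NK and innate lymphoid genes tested, 2 were higher and 5 lower, and the list summed to 431 ± 9.06 and 164 ± 8.29 CPM, largely Rora and Eomes. Ncr1, which defines NK cells, was at 1.26 ± 0.513 and 0.389 ± 0.0822 CPM. In CD4 and regulatory T cell genes (3 higher, 3 lower of 7), Zbtb7b was at 55.1 ± 0.916 and 4.77 ± 0.692 CPM, and Foxp3 at 0.856 ± 0.195 and 2.19 ± 1.00. The count of higher genes was 1 without memory replicate 3 in this list, and 1 without effector replicate 1 or memory replicate 2 in the macrophage list.

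Sums are over all listed members of a list, tested or not, except those with genes left out, which are over tested members. Of 11 neutrophil and mast cell genes tested, 3 were higher, and the list summed to 22.2 ± 0.647 CPM in effector and 31.4 ± 1.64 in memory cells, and Ly6g had 0 reads in memory. Of 5 gamma-delta T cell genes, 4 were higher, and the list summed to 12.1 ± 0.737 and 21.1 ± 0.320 CPM. Of 10 erythroid and platelet genes, 6 were higher, and the list summed to 20.3 ± 1.40 and 37.6 ± 6.05 CPM. Of the stromal and endothelial genes, 2 were tested and higher in memory, and Pecam1, which lymphocytes also carry, made up nearly all of that sum, at 21.4 ± 1.37 CPM in effector, 161 ± 4.80 in memory and 162 ± 4.11 in naive cells. Lum had 0 reads in both groups.

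The same difference in the libraries labelled cKO was set beside that of the WT libraries, and the difference between the 2 was tested as an interaction term over 12 libraries. Of 15373 genes in that fit, 1755 (11.4%) had an unequal difference, 553 of them by at least 2-fold (3.6%), and the difference was higher in libraries labelled cKO for 1091 (7.1%) and lower for 664 (4.32%). Hspa9 held 148 ± 9.46 CPM in effector and 339 ± 8.77 CPM in memory libraries labelled cKO, against 133 ± 5.22 and 240.1 ± 7.06 in WT. Its reads, counted over the whole gene, were thus not reduced in the libraries labelled cKO. How Hspa9 was targeted is not given, so these counts cannot tell whether part of the gene was removed. The 178 named genes were chosen on the WT libraries, so their WT differences are large by choice. Of these, 171 had the same sign in the libraries labelled cKO, and 41 had an unequal difference by 2-fold. Of 40 genes that were among the largest or fixed by name, 24 had an unequal difference and 12 by 2-fold. Of 38 mitosis genes, 31 had a less negative difference in libraries labelled cKO, with a median of -2.40 against -3.12 in WT. Of 24 NK-type receptor genes, 13 had a higher difference there, with a median of -0.62 against -1.60, and of 20 memory transcription factors, 10 had a lower one, with a median of 0.86 against 1.26. The ribosomal protein genes had 1 unequal difference in 76 (medians 0.75 and 0.91).

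Some lists had medians of opposite sign in the 2 genotype labels. Of the 13 mitochondrially encoded mRNAs, 9 had a lower difference in libraries labelled cKO and none a higher one, with a median of -0.49 against 0.33 in WT. The BCL2 family had 5 higher and 3 lower differences of 14 (medians 0.13 and -0.23). Markers of other cell types also had unequal differences, and their part in the unequal differences was not tested. Of 9 NK and innate lymphoid genes 3 had a higher difference and 1 a lower one (medians 0.75 and -0.66), of 16 macrophage and dendritic genes 6 had a higher one (0.76 and -0.31), and of 11 neutrophil and mast cell genes 5 (1.94 and 0.02).

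The summed levels of these lists are given as the lowest and highest library of a group. Neutrophil and mast cell genes summed to between 67.0 and 71.8 CPM in effector and between 237 and 305 CPM in memory libraries labelled cKO, against 21.7 to 23.0 and 29.5 to 32.4 in WT. Macrophage and dendritic genes summed to between 943 and 968 and between 346 and 394 CPM, against 823 to 830.2 and 64.6 to 72.5 in WT. NK and innate lymphoid genes summed to between 404 and 417 and between 211 and 212 CPM, against 423 to 441 and 154 to 169 in WT. No gene of these 3 lists was at 0 in the libraries labelled cKO. The sums of memory libraries labelled cKO were thus above those of WT memory libraries in all 3 lists. Sums without Itgax and Itgam, or without Rora and Eomes, were not taken in the libraries labelled cKO. Kit and Gata2 are in both the neutrophil and mast cell list and the NK and innate lymphoid list, so these sums are not independent. Gamma-delta T cell genes (68.3 to 70.5 and 123 to 154 CPM) and erythroid and platelet genes (109 to 114 and 66.8 to 82.5 CPM) were also above their WT sums in both subsets. CD4 and regulatory T cell genes and erythroid genes had medians of -0.02 and -0.19 there, against 0.57 and 0.71 in WT.

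**Figure D5:**
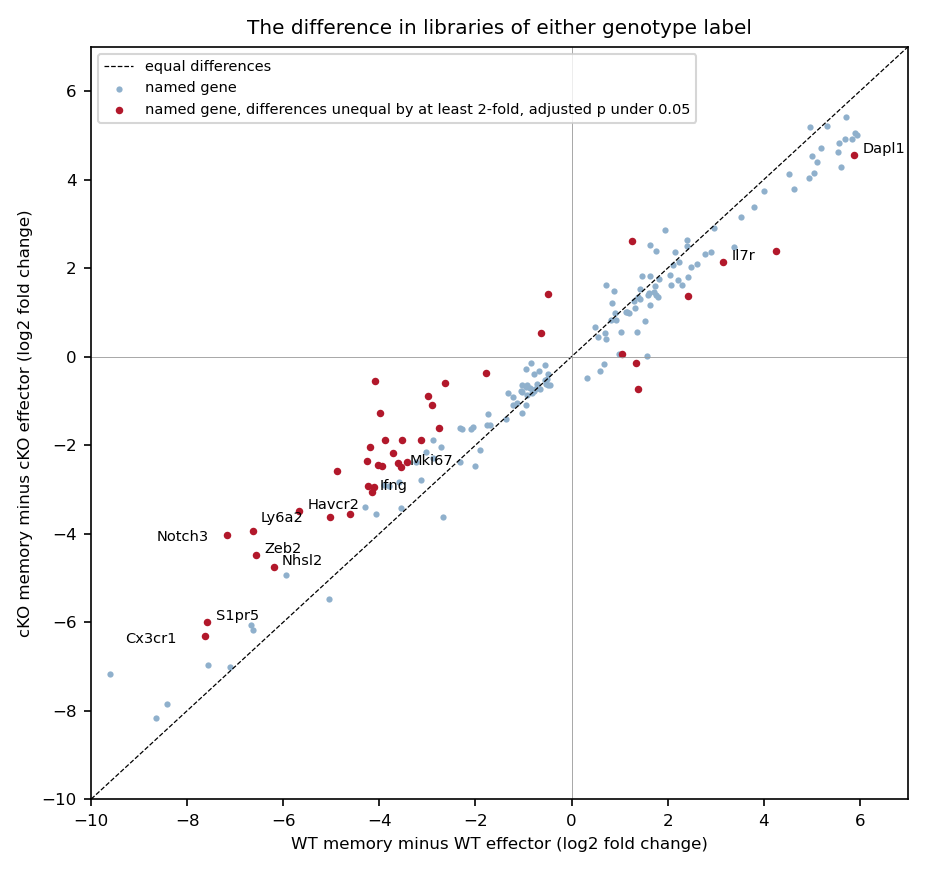
Each point is 1 of the 178 named genes, with the log2 fold change (memory minus effector) in WT libraries on the x axis and in libraries labelled cKO on the y axis. The dashed line marks equal differences, and the 41 red points differ by at least 2-fold at an adjusted p under 0.05, among them Zeb2 (-6.56 and -4.49) and Il7r (3.15 and 2.14).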

How the data were processed

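Poly-A RNA from CD8 T cells of mice was sequenced. For each subset the authors deposited 1 table, which per the file headers holds signal for every library, group means, and a log2 fold change with its p-value and adjusted p-value; the authors' log2 fold changes and p-values compare genotypes and were not used. Per the submitters' processing notes, fastp, HISAT2 2.2.1, featureCounts 2.0.6, DESeq2 1.42.0 and the build GRCm39 were used. The order, settings and strand of counting are not given in the sources used here, so reads of antisense partners cannot be told apart.

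The deposited signal steps by a fixed amount, that of 1 read, within a library, so dividing by it recovered the reads. All values (100%) came out whole within 1e-05 of a read, with a largest deviation of 4.53e-06 reads. Genes were joined by identifier: 22310 were in both tables, 1807 only in the effector and 2617 only in the memory table, among them Gpx8, at 19.3 CPM in effector cells. Gpx8 was named after its value was seen. The 6 WT libraries were normalised together by TMM in edgeR 4.0.16 (R 4.3.3), filtered by filterByExpr, and tested with the quasi-likelihood test and Benjamini-Hochberg adjustment over all genes. Running a count test as the main one on recovered reads, rather than a test on the signal itself, was a choice made here, and limma 3.58.1 on log2(CPM + 1) was an alternative. Naive and cKO libraries were put on the same scale. Single values per library were compared by exact two-sided permutation tests, 11 in all, each with p = 0.1 and, adjusted over the 11, 0.1.

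The members and 40 gene lists were chosen with earlier results of these data known. Named genes were the 15 largest log2 fold changes per direction among called genes whose log2 CPM averaged at least 3, with a known symbol and groups that did not overlap, up to 4 called members of each list by smallest adjusted p, and 13 genes fixed by name, of which 1 is not reported here and 12 are (Hspa9, Ccr7, Il7r, Tcf7, Gzmb, Prf1, Ifng, Cd44, Klrg1, Mki67, Cd8a and Cd8b1), 178 in all. Other list members were named as examples after their values were seen. Alternatives were another normalisation, no scaling, no filter, DESeq2 1.42.0, limma, a replicate block, a fit of 12 libraries, genes of either table, and each library left out. Libraries of a group differed by more than sampling noise (chi-square per gene of 2.71 to 9.01). The highest values, 9.01 and 7.66, were those of WT memory replicate 2 against replicates 1 and 3. All other pairs lay between 2.71 and 3.88. On simulated counts 43 of 50 genes changed by 1.5-fold and 50 of 50 changed by 2-fold were recovered, with 22 of 13717 unchanged genes called. Those counts held 13917 genes, most of them unchanged, whereas 68.2% of the genes tested were called in the data. Recovery with so large a share of changed genes was not tested. Coordinates of genes are those of the deposited tables (GRCm39), and promoter windows are RefSeq's on GRCm38.p6.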

Additional observations from a re-analysis of the deposited data

Results flagged for a closer look

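The following 11 genes, from those with the largest differences or fixed by name, had a memory minus effector difference that was unequal between libraries labelled cKO and WT libraries by at least 2-fold, tested as an interaction term with edgeR over 12 libraries with 3 per group and adjusted over 15373 genes. The values given are cKO minus WT on the log2 scale. Genes taken for the largest differences were chosen on the same WT libraries, so their WT differences are large by choice. The interaction term used those libraries again, and its p-values do not allow for this choice. Among genes lower in WT memory than in WT effector cells the difference was less negative in the libraries labelled cKO by 3.11 for Notch3 (adjusted p = 1.9e-05), 2.68 for Ly6a2 (2.1e-04), 2.15 for Havcr2 (4.9e-09) and 2.03 for Zeb2 (4.8e-07). It was 1.55 for S1pr5 (8.7e-06), 1.41 for Nhsl2 (5.2e-04), 1.28 for Cx3cr1 (2.8e-06), 1.06 for Ifng (4.2e-05) and 1.01 for Mki67 (9.6e-07). Among genes higher in WT memory cells it was less positive, by -1.38 for Dapl1 (0.025) and -1.05 for Il7r (2.7e-08). The values for Notch3, Nhsl2 and Ly6a2 rest on low levels in WT memory libraries. These were 0.0247, 0.0508 and 0.109 CPM per kilobase of gene length, against 3.77, 3.73 and 11.6 in WT effector libraries. Zeb2, Cx3cr1, S1pr5 and Havcr2 were also low there, at 0.251, 0.649, 0.654 and 0.722 CPM per kilobase. Reads of Ly6a2 may also be split with similar genes of its family.

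Zeb2 held 398 ± 10.4 and 17.5 ± 4.62 CPM in effector and memory libraries labelled cKO (SD, n = 3), against 474 ± 11.0 and 5.06 ± 0.865 in WT. Il7r held 106 ± 0.267 and 463 ± 14.7 CPM, against 72.0 ± 2.52 and 640.3 ± 16.6, and Mki67 919 ± 21.6 and 161 ± 18.8 CPM, against 1307 ± 55.4 and 112 ± 4.07. The cause of these unequal differences was not tested.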

How the results depend on the processing

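All 178 named genes kept their direction and call under the alternatives that keep every library, and 2 of them changed when 1 library was left out: Foxp3 lost its call without WT memory replicate 3 (adjusted p = 0.0565) and Trgc1 without WT effector replicate 1 (0.114) or WT memory replicate 3 (0.108). Apart from those fixed by name, these genes were chosen on the same libraries for large differences or small adjusted p, which favours stable calls. Other list members did lose calls, such as Idh3b and Uqcrh with library totals in edgeR (adjusted p = 0.125 and 0.145). With limma on log2(CPM + 1), 1311 genes were at least 2-fold higher in memory in place of 2055, and 2618 of its 2619 2-fold calls in either direction were among the 3706 of the edgeR fit; that scale shrinks the fold of low genes. With library totals in place of TMM the summed difference (memory minus effector) was -743 CPM for macrophage and dendritic genes, in place of -757, and -258 for NK and innate lymphoid genes, in place of -268. Gapdh, not called with all libraries, ranged from -0.381 to 0.752 on the log2 scale when 1 library was left out, reversing and passing the threshold without WT effector replicate 2; the cause was not tested. Bcl11b and Ets1 lost their calls in the fit of 12 libraries (adjusted p = 0.0721 and 0.112), and Irf4 gained one with library totals (0.0169). Counts of at least 2-fold calls without 1 library ranged from 2053 to 2141 higher and from 1680.00 to 1761 lower, of all calls from 4506 to 4904 higher and from 4614 to 5039 lower, and of unequal differences between genotype labels from 1331 to 2079. The replicate numbers did not pair the libraries (correlations of same-numbered deviations of -0.004, 0.059 and 0.037), and with the number as a replicate block 3698 genes were called at 2-fold, 3664 of them shared, while 1511 unequal differences were called in place of 1755. Genes near 1 CPM, such as many markers of other cell types, rest on few reads.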
